A study of Mus musculus with 14 samples.

Results

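The genes described here are the 5 subunits of the transcription factor NF-κB (Nfkb1, Nfkb2, Rela, Relb and Rel) and 5 genes that feed back on it (Nfkbia, Nfkbie, Nfkbiz, Tnfaip3 and Bcl3). They were selected by gene symbol, 10 of the 55487 genes in the count tables, and all 10 had enough counts to be tested in every comparison. RNA-seq libraries were made from 2 sorted populations of mouse bone marrow, LSK (lineage-negative, Sca1+, c-kit+) and the myeloid progenitor fraction LK (lineage-negative, c-kit+), and from cultured mesenchymal stromal cells of the marrow (MSC). The comparison of IL-1β with PBS asks how each population responds to this inflammatory cytokine, which has been linked to myeloproliferative neoplasm. Transcript levels of the 10 genes were followed across the 3 populations and both treatments.

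All LSK and LK libraries came from mice with a heterozygous Jak2V617F allele on the C57BL/6 background, whether they received PBS or IL-1β. In the study this allele is induced by pI-pC through Mx1Cre, which is active in blood cells and in several other cell types, and marrow of such mice was transplanted into irradiated C57BL/6 recipients. The mice were injected intraperitoneally with PBS (3 libraries in each population) or with 0.5 μg IL-1β (2 libraries in each population), in 3 doses a week for 16 weeks. MSC were grown from C57BL/6 marrow that carries no Jak2 mutation, and were kept in PBS (2 libraries, replicates 2 and 3) or in 5 ng/ml IL-1β (2 libraries) for 72 h. Long exposure of an animal and short exposure of a culture are therefore not the same treatment. The labels do not say whether each library is a separate animal or culture, so the p-values measure only the spread between these libraries.

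NF-κB works as pairs of subunits that bind κB sites in DNA. In resting cells most pairs are held in the cytoplasm by IκB proteins, and IL-1β acts through its receptor and the IκB kinases to have the IκB destroyed and the pairs released. The released factor switches on genes of its own restraint, among them new IκB and the ubiquitin-editing enzyme A20, so that levels of these RNAs are often read as a record of pathway activity.

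Counted read pairs ranged from 4393233 to 30871055 per library. Both IL-1β libraries of LSK and of LK cells were shallower than every PBS library of their population, so depth and treatment cannot be told apart there. The stem and progenitor marker Kit was at 299 to 605 CPM (counts scaled to a common library size with TMM factors within a population) in LSK cells and at 292 to 364 CPM in LK cells. Ly6a, which encodes the Sca-1 antigen, was at 15.2 to 42.1 CPM in LSK cells and at 0.257 to 1.99 CPM in LK cells. Of the 13 mesenchymal markers, Lepr was at 0 in both MSC libraries with PBS, Nt5e was at 0.226 to 1.15 CPM, and Col1a1 was at 405 to 1310 CPM. Macrophage markers were more abundant. All 14 macrophage markers were detected in all 4 MSC libraries, Lyz2 among them at 4796 to 20773 CPM and Adgre1 (F4/80) at 653 to 1804 CPM, against summed levels of the 14 genes of 188 to 461 CPM in LSK and LK libraries. The MSC values below therefore belong to cultures that contained both kinds of RNA.

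To show the elements through which NF-κB can act on its own genes, promoter stretches with a match to the κB consensus motif are printed here. RefSeq promoter windows (GRCm38.p6) were held for 7 of the 10 genes, and the 250 bases before each start were searched on both strands. Of 32851 windows of all genes, 7.25% had a match, and of the 10 windows of members 7 had one. Matches were found for 5 of the 7 members, namely Nfkb2, Rel, Nfkbia, Nfkbie and Tnfaip3. The windows of Rela and Bcl3 had none. Each sequence runs 5′ to 3′ towards the start site on the gene's own strand, with the matched bases in capitals.
Nfkbia: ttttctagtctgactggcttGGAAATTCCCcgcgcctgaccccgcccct
Nfkbie: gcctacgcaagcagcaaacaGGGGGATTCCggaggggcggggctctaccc
Nfkb2: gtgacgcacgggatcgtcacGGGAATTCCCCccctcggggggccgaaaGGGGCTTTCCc
Rel: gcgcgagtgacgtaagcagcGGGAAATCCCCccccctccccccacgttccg
Tnfaip3: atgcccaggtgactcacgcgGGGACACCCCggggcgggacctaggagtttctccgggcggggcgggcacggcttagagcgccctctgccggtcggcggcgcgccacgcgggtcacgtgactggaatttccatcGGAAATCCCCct
The stretches lie at chr12:55492648-55492696 (minus strand), chr17:45555574-45555623 (plus), chr19:46304678-46304736 (plus), chr11:23771031-23771081 (minus) and chr10:19015411-19015555 (minus). In Nfkb2 and in Rel the capitals join overlapping matches, and the printed stretches hold matches at 3 and 2 positions. The windows of 2 further Nfkb2 start sites each had a match too and are not printed. A match describes these letters and does not show that the factor was bound.

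By group mean, the most abundant subunit RNA per kilobase was Rela in all 6 groups, although in 1 library, LSK IL-1β replicate 1, the share of Nfkb1 (41.8%) was above that of Rela (40.1%). Levels between genes were compared as CPM per kb of merged exon length, with TMM scaling over all 14 libraries. In LSK cells with PBS, Rela (31.5 ± 5.59 CPM per kb, SD, n = 3) and Nfkbia (29.4 ± 3.02) came first and their ranges overlapped. Nfkb1 followed at 19.2 ± 2.40, below the lowest Nfkbia library. Nfkbie (11.2 ± 5.97), Nfkb2 (7.17 ± 1.49), Bcl3 (6.44 ± 4.83) and Rel (4.13 ± 0.743) formed a series in which each neighbour overlapped the next. Tnfaip3 (2.07 ± 0.526), Nfkbiz (1.54 ± 0.742) and Relb (1.45 ± 0.882) were lowest and overlapped too. In LK cells with PBS, Rela stood alone at 40.0 ± 1.43 CPM per kb (n = 3), and Nfkbia (16.3 ± 3.18) and Nfkb1 (14.4 ± 2.18) overlapped below it. Nfkb2 came next at 3.85 ± 0.322, clear of Bcl3 (1.98 ± 0.277) and Nfkbie (1.98 ± 0.522). Tnfaip3 (1.22 ± 0.226) overlapped Rel (1.13 ± 0.0606), and Relb (0.555 ± 0.253) overlapped Nfkbiz (0.534 ± 0.292).

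In MSC with PBS, Rela (57.9 ± 5.89 CPM per kb, SD, n = 2) and Nfkbia (54.7 ± 13) again came first with overlapping ranges. The order below them was different from that of the sorted cells, with Nfkb2 at 18.6 ± 0.984, Bcl3 at 13.5 ± 2.38 and Relb at 10.9 ± 0.0968. Nfkb1 (9.40 ± 0.846) and Nfkbie (8.70 ± 1.88) overlapped, as did Nfkbiz (4.65 ± 1.24), Tnfaip3 (4.41 ± 0.761) and Rel (3.99 ± 0.0294). With IL-1β, Nfkbia (115 ± 1.15) passed Rela (64.1 ± 3.02) in both MSC libraries.

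The make-up of subunit RNA differed between the sorted cells and the MSC cultures. Rel made up 5.58% to 8.55% of the summed per-kb subunit level in LSK libraries with PBS and 1.76% to 1.98% in LK libraries with PBS, without overlap. The share of Rela was 47.4% to 51.3% in LSK and 63.2% to 68.6% in LK libraries with PBS. Relb, which encodes the partner of the Nfkb2 product p52 in the non-canonical pathway, made up 10.5% and 11.2% in MSC with PBS against 0.766% to 3.17% in LSK cells. Nfkb2 and Relb together were the subunits whose share was higher in both MSC libraries with IL-1β than in both with PBS, 22.0% and 24.8% against 17.2% and 19.6% for Nfkb2 and 15.6% and 16.9% against 10.5% and 11.2% for Relb. In LK cells the share of Rela was lower with IL-1β (52.9% and 56.6%) and that of Nfkb1 higher (31.9% and 33.6% against 21.6% to 27.6%). The LK shares of Nfkb2 (8.88% and 7.53% against 6.04% to 6.78%) and Rel (4.20% and 2.94% against 1.76% to 1.98%) were higher too. The shares of a library depend on each other, so a lower share of Rela by itself raises the rest. These shares depend on the exon lengths. Without division by length Nfkb1, whose merged exons are the longest at 12061 bases, had a mean share of 58.3% in LSK cells with PBS in place of 30.3%.

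**Figure D1:**
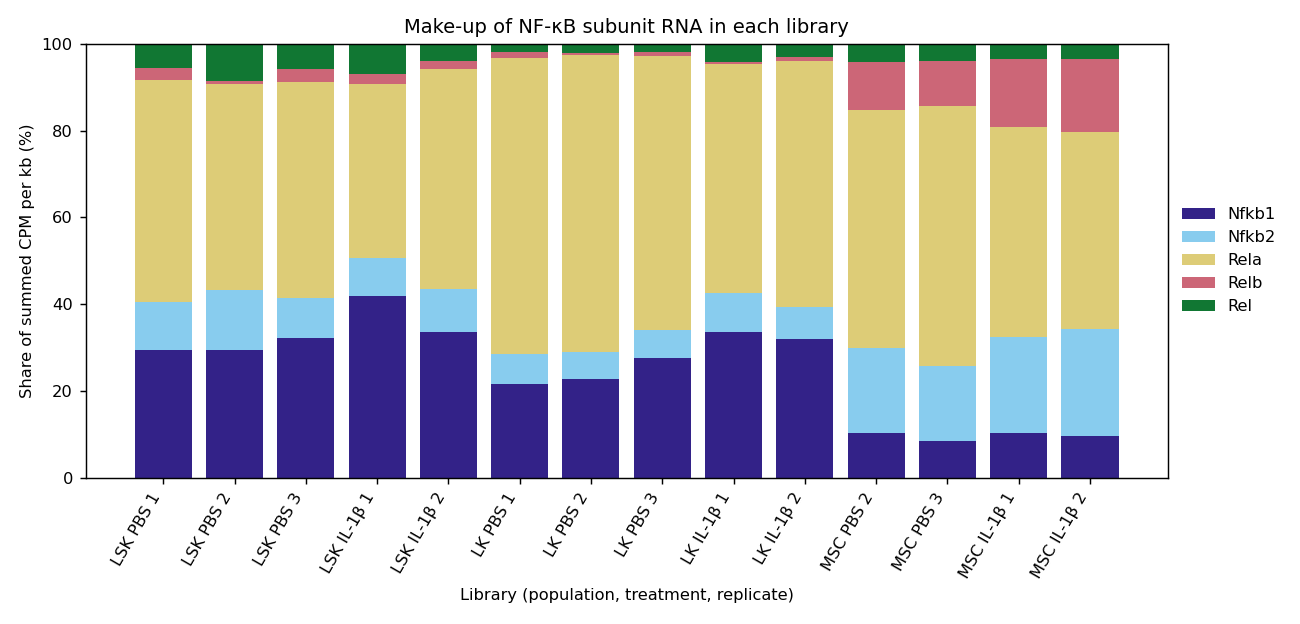
Stacked bars give the share (%) of each of the 5 subunit genes in the summed CPM per kb of the 5, for each of the 14 libraries. Relb and Nfkb2 take a larger part of the bar in MSC libraries than in LSK and LK libraries, and Rela takes 63.2% to 68.6% in LK libraries with PBS.

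In MSC cultures, 6 of the 10 genes rose with IL-1β and none fell. The 6 were Nfkb2, Relb, Nfkbia, Nfkbie, Nfkbiz and Bcl3, by 1.68-fold to 2.91-fold. Of all 13239 genes tested in MSC, 7.14% were called higher, where a call needs a log2 fold change above 0.5 and, in the quasi-likelihood test of edgeR, an adjusted p under 0.05. For all 10 genes the lower IL-1β library exceeded the higher PBS library, an arrangement found in this direction for 31.3% of all genes tested. The median log2 fold change of the 10 was 0.80, against 0.0044 over all genes tested.

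Among the subunits in MSC, Nfkb2 and Relb rose. Nfkb2, which encodes p100 and its processed form p52, was at 74.6 and 67.5 CPM with PBS and at 109 and 129 CPM with IL-1β (log2 fold change 0.75 ± 0.13 SE, adjusted p = 0.0223). Relb was at 36.1 and 34.8 CPM with PBS and at 65.4 and 74.6 CPM with IL-1β (log2 fold change 0.98 ± 0.12, adjusted p = 0.00865). The difference between treatments exceeded the spread within each treatment for both. Nfkb1, the p105 and p50 gene, was at 102 and 87.5 CPM with PBS and at 135 and 132 CPM with IL-1β. Its adjusted p of 0.0462 passed and its log2 fold change of 0.496 did not, so it was not called. Rela, which encodes the main activating subunit p65, was at 140 and 157 CPM with PBS and at 161 and 159 CPM with IL-1β (log2 fold change 0.11, 95% interval -0.16 to 0.37). Rel, which encodes c-Rel, was at 25.3 and 24.4 CPM and at 28.4 and 28.8 CPM (log2 fold change 0.20, interval -0.09 to 0.49).

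Both cytoplasmic IκB genes rose in MSC. Nfkbia, which encodes IκBα, the inhibitor that retakes NF-κB from the nucleus, was at 61.9 and 84.8 CPM with PBS and at 146 and 156 CPM with IL-1β (log2 fold change 1.03 ± 0.16, adjusted p = 0.0187). Nfkbie, which encodes IκBε, was at 25.8 and 18.5 CPM with PBS and at 36.7 and 42.7 CPM with IL-1β (log2 fold change 0.86 ± 0.19, adjusted p = 0.0406). Of the 5 genes with a κB match printed above, Nfkb2, Nfkbia and Nfkbie were called in MSC and Rel and Tnfaip3 were not, while Bcl3, with the largest log2 fold change, had no match in its window.

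The genes for the atypical, nuclear IκB proteins changed most among the members in MSC. Bcl3, which encodes a co-factor of p50 and p52, was at 24.6 and 30.9 CPM with PBS and at 83.8 and 79.7 CPM with IL-1β (log2 fold change 1.54 ± 0.14, adjusted p = 0.00388). Nfkbiz, which encodes IκBζ, a co-activator of secondary response genes, was at 16.0 and 22.9 CPM with PBS and at 58.2 and 53.4 CPM with IL-1β (log2 fold change 1.5 ± 0.18, adjusted p = 0.00906). Tnfaip3, the A20 gene, was at 23.6 and 29.5 CPM with PBS and at 30.6 and 34.5 CPM with IL-1β, and its log2 fold change of 0.28 (interval -0.10 to 0.66) did not pass the test (adjusted p = 0.289).

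Leaving out either MSC library with IL-1β ended all 6 calls, at 0 of 10, although the log2 fold changes of the 6 genes stayed between 0.61 and 1.58. The remaining library of that arm is then assumed to vary like the PBS libraries, and of all genes 38 were called higher without replicate 1 and 80 without replicate 2. One fit of all 14 libraries called 1 of the 10, Nfkbia. In bulk RNA, a change in the share of a cell type and a change in RNA per cell cannot be told apart. The summed level of the 14 macrophage markers was 16279 and 21109 CPM with PBS and 37859 and 38777 CPM with IL-1β, and 7 of the 14 were called higher. That of the 13 mesenchymal markers was 1801 and 3726 CPM with PBS and 4030 and 4562 CPM with IL-1β. The part of either in the rise of the 6 genes was not tested.

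**Figure D2:**
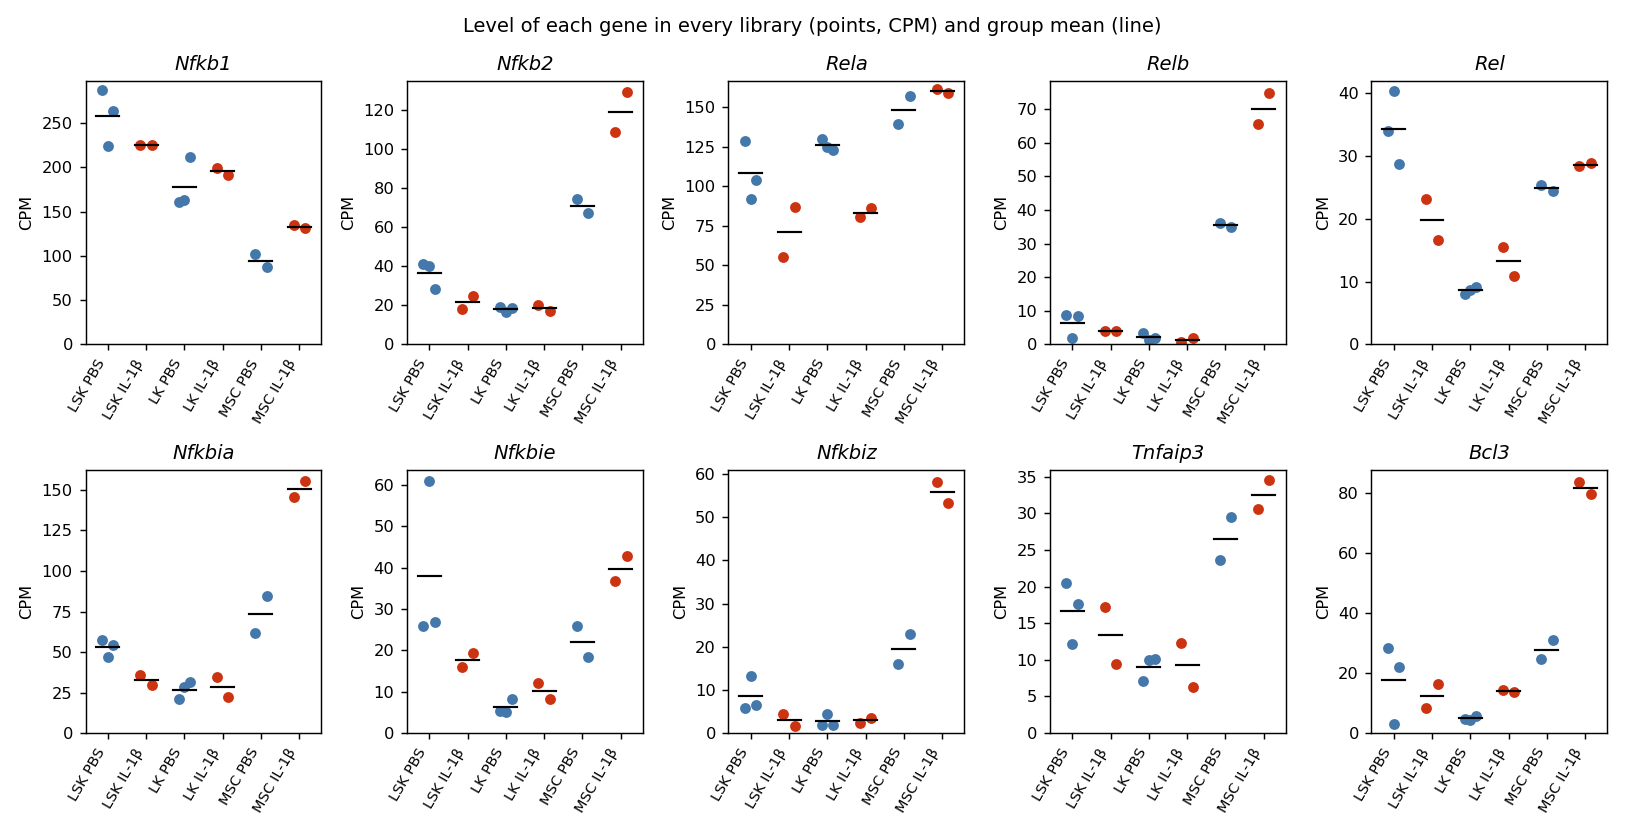
Each panel gives 1 gene, with the CPM of every library as a point (blue, PBS; red, IL-1β) and the group mean as a line; CPM is scaled within each population. In MSC the IL-1β points of all 10 genes lie above the PBS points, and in LSK cells PBS replicate 2 stands apart for Relb, Bcl3, Nfkbie and Nfkbiz.

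Other genes of the pathway were tested in MSC as well. Of all genes tested there, 7.14% were called higher and 4.31% lower. Of 13 kinases and other inhibitors, 2 were called higher and none lower, Ikbke (log2 fold change 1.62 ± 0.12 SE), which encodes IKKε, and Map3k8 (0.84 ± 0.20), which encodes the p105-bound kinase TPL2. The median of this list was 0.21, and a count of 2 among 13 is near the background. Of 18 ubiquitin regulators, 5 were called higher and 1 lower (median 0.36), with Zc3h12a (1.61 ± 0.12), an RNase that cuts cytokine transcripts, N4bp1 (1.36 ± 0.11), Birc3 (1.21 ± 0.12), which encodes the ubiquitin ligase cIAP2, Rnf31 (0.60 ± 0.10) and Traf2 (0.55 ± 0.13) higher and Otulin (-0.63 ± 0.13), a linear deubiquitinase gene, lower. Of 20 κB target genes, 19 were tested, of which 13 were called higher and 2 lower (median 1.14). Those with the smallest p were Nos2 (log2 fold change 8.91 ± 0.22), Ccl5 (5.03 ± 0.14), Il6 (6.34 ± 0.30) and Ier3 (2.28 ± 0.14). The 2 that fell, Gadd45b (-1.21 ± 0.12) and Csf1 (-0.87 ± 0.14), were among those that rose in LK cells, and both responses differed between MSC and LK cells by the test of the difference (adjusted p = 0.0210 and 0.000164). All of these were chosen as NF-κB pathway genes from general knowledge and may also respond to other signals.

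In LK cells 1 of the 10 genes rose with IL-1β, Bcl3, and 1 fell, Rela. Over all 12835 genes tested, 6.77% were called higher and 2.57% lower, so counts of 1 among 10 are near the background. Bcl3 was at 4.84, 4.42 and 5.86 CPM with PBS and at 14.3 and 13.6 CPM with IL-1β, a 2.77-fold difference (log2 fold change 1.47 ± 0.25 SE, adjusted p = 0.00957). Rela was at 130, 125 and 123 CPM with PBS and at 80.3 and 86.4 CPM with IL-1β (log2 fold change -0.60 ± 0.10, adjusted p = 0.00875). Neither gene had overlapping treatments. Both calls were lost without LK IL-1β replicate 1 or without replicate 2, when adjusted p for Bcl3 was 0.152 or 0.0760 and for Rela 0.158 or 0.0685. The log2 fold changes stayed about as large, at 1.42 or 1.51 for Bcl3 and -0.56 or -0.64 for Rela. They were also lost in one fit with the LSK libraries (adjusted p = 0.357 and 0.219), whose typical biological coefficient of variation was 0.377 against 0.183 in LK cells.

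The other 8 members did not pass the test in LK cells. Rel was at 8.10, 8.73 and 9.15 CPM with PBS and at 15.5 and 10.9 CPM with IL-1β (log2 fold change 0.61, 95% interval 0.07 to 1.15, adjusted p = 0.153). Nfkbie was at 5.32, 5.14 and 8.15 CPM with PBS and at 12.2 and 8.17 CPM with IL-1β (log2 fold change 0.72, adjusted p = 0.203). These 2 genes and Bcl3 were the 3 whose IL-1β libraries lay above all PBS libraries, the case for 23.5% of all genes tested, and Rela was the 1 that lay below, the case for 22.2%. Counts of that kind are near the background. The RNA of the main feedback inhibitor differed by less than its spread. Nfkbia was at 20.8, 28.7 and 31.2 CPM with PBS and at 34.4 and 22.1 CPM with IL-1β (log2 fold change 0.07, interval -0.48 to 0.63). Nfkb1 (0.13), Nfkb2 (0.04), Nfkbiz (0.08) and Tnfaip3 (0.04) had small log2 fold changes with overlapping libraries. Relb had 6 to 42 counts per library in LK cells, too few to place its value of -0.71 (interval -2.15 to 0.73).

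Of the other pathway genes in LK cells, Csf1 (log2 fold change 2.23 ± 0.22), the macrophage growth factor, Gadd45b (2.29 ± 0.22), a stress-response gene, and the adhesion gene Vcam1 (2.49 ± 0.56) were called higher among 9 tested κB target genes of 20, and none was called lower. Of the 17 ubiquitin regulators tested, 2 were called higher, Traf3 (0.62 ± 0.11) and Tax1bp1 (0.61 ± 0.13). Both encode negative regulators of the pathway. Over all genes tested in LK cells 6.77% were called higher, so a count of 2 among 17 is near the background. None of the 13 kinases and other inhibitors was called with edgeR in LK cells. The summed level of 9 neutrophil granule markers was 4411 to 9557 CPM with PBS and 18106 and 21162 CPM with IL-1β, with 6 of the 9 called higher. Its part in the LK values was not tested.

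In LSK cells no member was called by edgeR's test, by DESeq2 or by limma-voom on the LSK libraries. All 10 had negative log2 fold changes, with a median of -0.67 against -0.06 over the 13132 genes tested. Calls were rare in LSK cells, at 0.32% of genes higher and 0.312% lower. At an unadjusted p under 0.05 there were 4 members, Nfkb2, Rel, Nfkbia and Nfkbie, and 18.5% of all genes tested. In 6 members, Nfkb2, Rela, Rel, Nfkbia, Nfkbie and Nfkbiz, both IL-1β libraries lay below all PBS libraries, as in 21.4% of all genes tested.

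Nfkbia was at 57.5, 46.9 and 54.2 CPM with PBS and at 36.0 and 29.5 CPM with IL-1β in LSK cells (log2 fold change -0.69, 95% interval -1.28 to -0.10, adjusted p = 0.215). Rel, a subunit known for its part in lymphoid cells, was at 33.9, 40.3 and 28.7 CPM with PBS and at 23.1 and 16.6 CPM with IL-1β (log2 fold change -0.78, interval -1.49 to -0.07, adjusted p = 0.238). Nfkb2 was at 41.3, 40.0 and 28.4 CPM with PBS and at 18.2 and 25.0 CPM with IL-1β (log2 fold change -0.76, interval -1.48 to -0.05, adjusted p = 0.247). The libraries of these 3 genes did not overlap between treatments, and none of the 3 passed after adjustment in the fit of LSK libraries. In one fit of all 14 libraries Nfkb2 (adjusted p = 0.0329) and Rel (adjusted p = 0.0463) were called lower. That fit called 1022 of 15393 genes lower in LSK cells, against 41 of 13132 in the fit of LSK libraries. Rela was at 128, 91.8 and 104 CPM with PBS and at 55.3 and 86.7 CPM with IL-1β (log2 fold change -0.61, interval -1.25 to 0.03). Nfkb1 was at 288, 224 and 264 CPM with PBS and at 226 and 225 CPM with IL-1β (-0.20, interval -0.72 to 0.33). Tnfaip3 was at 20.5, 12.1 and 17.6 CPM with PBS and at 17.3 and 9.41 CPM with IL-1β (-0.31, interval -1.25 to 0.62), with the 2 treatments intermingled.

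One LSK library stood apart in 4 members. Bcl3 was at 28.4 and 22.1 CPM in LSK PBS replicates 1 and 3 and at 2.89 CPM in replicate 2, with 8.39 and 16.3 CPM in the IL-1β libraries. Relb was at 8.69 and 8.35 CPM in PBS replicates 1 and 3, at 1.88 CPM in replicate 2, and at 4.01 and 3.96 CPM with IL-1β. The opposite held for 2 other members. Nfkbie was at 60.9 CPM in PBS replicate 2 against 25.9 and 26.9 CPM in the others and 15.9 and 19.3 CPM with IL-1β, and Nfkbiz was at 13.3 CPM against 5.92 and 6.60 CPM and 4.38 and 1.73 CPM with IL-1β. That library also had counts on fewer genes (15360) than PBS replicates 1 and 3 (18056 and 18023) at a similar depth. Without it the log2 fold change was -1.04 for Bcl3 in place of -0.55, -1.07 for Relb in place of -0.66, -0.57 for Nfkbie in place of -1.11 and -0.96 for Nfkbiz in place of -1.45, and none of the 10 was called.

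In LSK cells edgeR called 0 of 13 kinases and other inhibitors, 0 of 18 ubiquitin regulators and 0 of 13 tested κB target genes. Since only 0.32% of all genes were called higher and 0.312% lower, 0 in lists of this size shows no absence of change. Of the κB target genes called in LK cells, Gadd45b had a log2 fold change of 2.13 ± 0.69 SE in LSK cells. Vcam1 was at 2.32 ± 1.14 and Csf1 at 0.38 ± 0.40. The summed stem and progenitor markers were at 1500 to 1940 CPM with PBS and at 846 and 956 CPM with IL-1β. The summed level of 5 lymphoid markers was 117, 358 and 102 CPM with PBS and 3.52 and 7.92 CPM with IL-1β, with PBS replicate 2 the highest. Of these markers 3 were too low to test, and Dntt, which encodes the terminal transferase of lymphoid progenitors, was called lower. The neutrophil granule markers were at 2202 to 3180 CPM with PBS and at 9904 and 11595 CPM with IL-1β. The part of these shifts in the values of the 10 genes was not tested.

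**Figure D3:**
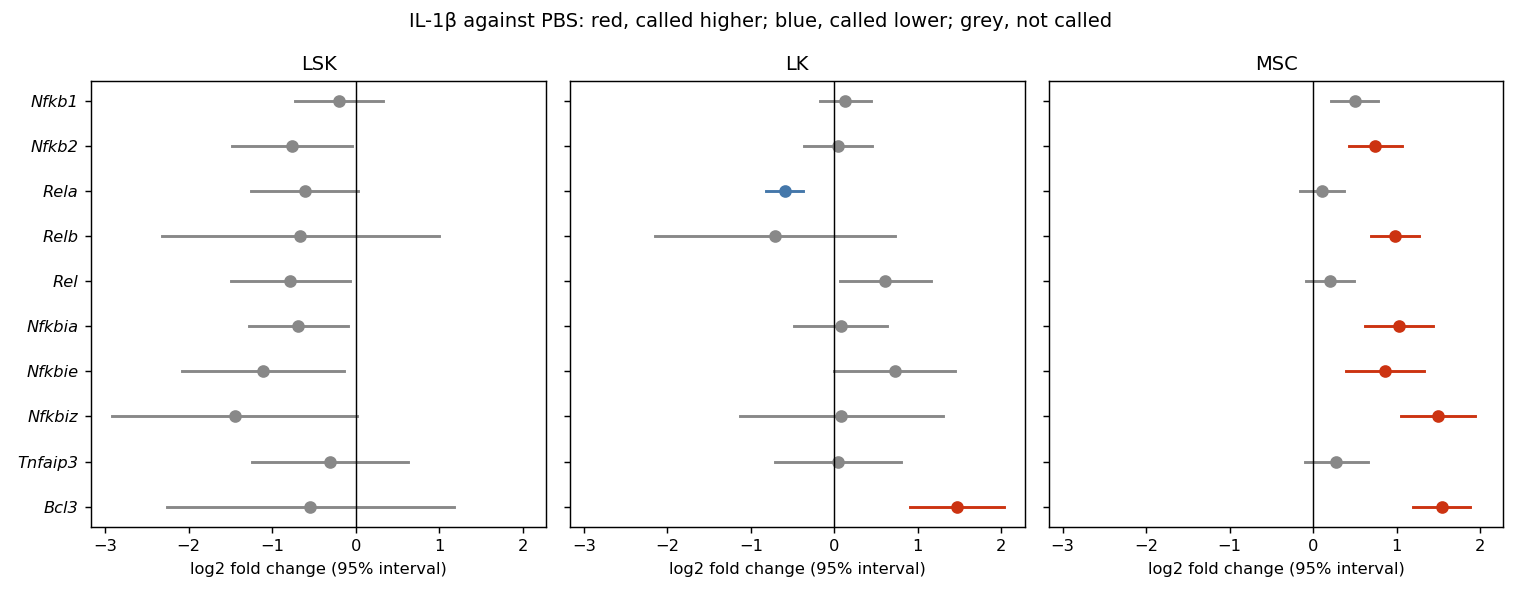
Points give the log2 fold change of IL-1β against PBS for each gene in LSK, LK and MSC, and lines its 95% interval; red marks genes called higher, blue lower and grey not called. All 10 points lie left of 0 in LSK cells and right of 0 in MSC.

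The size of the response was then compared between populations, as a difference of 2 log2 fold changes tested in one fit. Between MSC and LSK cells, 4 of the 10 genes differed, with the higher value in MSC, against 5.37% of the 15393 genes tested. They were Nfkbia (difference 1.75 ± 0.34 SE, adjusted p = 0.00856), Nfkb2 (1.55 ± 0.31, adjusted p = 0.00925), Nfkbiz (2.94 ± 0.70, adjusted p = 0.0216) and Nfkbie (2.0 ± 0.54, adjusted p = 0.0366). Bcl3 (2.15, 95% interval 0.29 to 4.02) and Relb (1.68, interval 0.10 to 3.26) did not pass. The median difference over all genes tested was 0.15. Nfkbiz had only 36 and 7 counts in the LSK libraries with IL-1β. Its difference was 3.92 without LSK IL-1β replicate 1 and 2.53 without LSK IL-1β replicate 2. DESeq2 called Rel as well (adjusted p = 0.0440), and limma-voom did not call Nfkbie (adjusted p = 0.0552). Nfkbie and Nfkbiz were lost on leaving out any 1 MSC library, and of the 4 only Nfkbia passed whichever of the 14 libraries was left out. The number of calls over all genes moved with the library left out. Without LSK PBS replicate 2, 1575 of 15214 genes were called with the higher value in MSC, against 826 of 15393 in the full set. Leaving out an MSC library lowered that number. The count of members was 8 of 10 without LSK PBS replicate 2, Bcl3 and Relb included. It was 2 without MSC IL-1β replicate 1 or MSC PBS replicate 2 and 1 without MSC IL-1β replicate 2 or MSC PBS replicate 3. Between MSC and LK cells no member passed with edgeR, DESeq2 or limma-voom, and 1.24% of all genes were called with the higher value in MSC. At an unadjusted p under 0.05 there were 5 members and 12.6% of all genes tested. The largest of these differences was that of Relb (1.80, interval 0.03 to 3.57), followed by Nfkbiz (1.56, interval 0.05 to 3.07) and Nfkbia (1.07, interval 0.34 to 1.80, adjusted p = 0.157). Culture against injection, the length of exposure and the Jak2 genotype all differ between MSC and the sorted cells and cannot be told apart from the population.

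**Figure D4:**
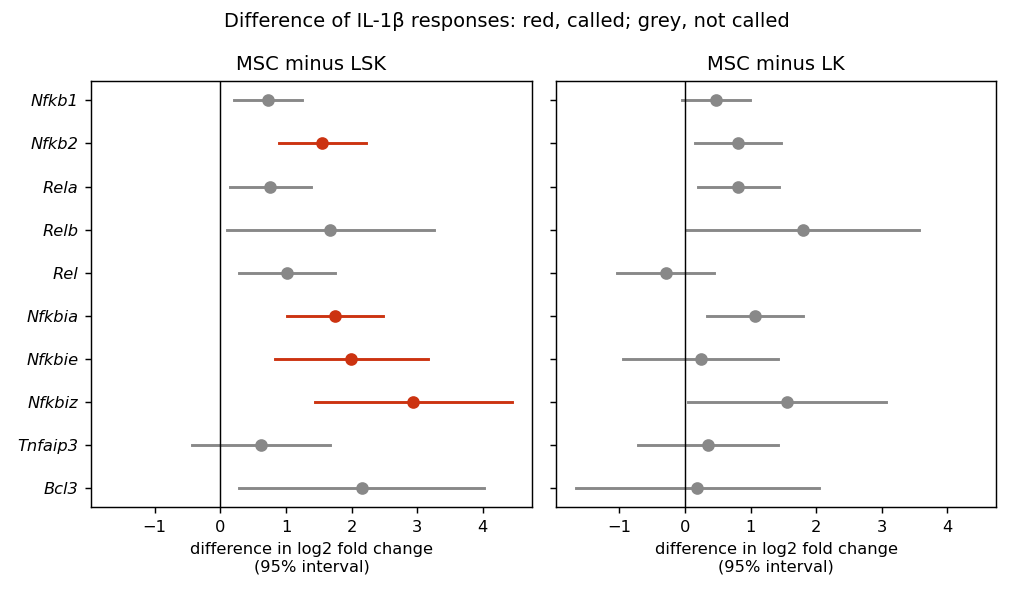
Points give the difference between the log2 fold changes of 2 populations for each gene, MSC minus LSK and MSC minus LK, and lines the 95% interval; red marks genes called and grey those not called. Nfkb2, Nfkbia, Nfkbie and Nfkbiz are red against LSK, and none is red against LK.

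Between LSK and LK cells no member passed the test of the difference in response with edgeR or limma-voom, while DESeq2 called 1, Rel. In that comparison edgeR called 0.00723% of genes with the higher value in LSK and 0.0217% with the lower, and 4 members had an unadjusted p under 0.05, as did 14.2% of all genes tested. Rel differed by -1.43 ± 0.38 (LSK minus LK, adjusted p = 0.171) and Nfkbie by -1.86 ± 0.56 (adjusted p = 0.206). Bcl3 differed by -2.07 ± 0.95 (adjusted p = 0.353), and by -2.58 without LSK PBS replicate 2, when it passed (adjusted p = 0.0357). Without that library 169 of 13626 genes were called with the lower value in LSK, against 3 of 13839 with it. The rise of Bcl3 in LK cells was therefore not shown to be particular to LK cells in the full set.

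With PBS alone, 7 of the 10 genes were higher in LSK than in LK cells, against 19.4% of the 13839 genes tested, in a fit that also held the IL-1β libraries. Fitted on the PBS libraries alone 5 were called, without Nfkb1 (adjusted p = 0.0553) and Bcl3 (adjusted p = 0.0716), and the count fell to 4 without LK IL-1β replicate 1, LK IL-1β replicate 2 or LK PBS replicate 1. Nfkbie differed most, 6.10-fold (log2 difference 2.61 ± 0.36 SE, adjusted p = 0.000295), followed by Rel, 3.97-fold (1.99 ± 0.24, adjusted p = 0.000133). Bcl3 (3.58-fold, adjusted p = 0.0353), Nfkbiz (3.09-fold, adjusted p = 0.0314), Nfkb2 (2.03-fold, adjusted p = 0.00488), Nfkbia (1.97-fold, adjusted p = 0.00605) and Nfkb1 (1.46-fold, adjusted p = 0.0240) were the others. Without LSK PBS replicate 2, the highest library for Nfkbie, the log2 difference was 2.11 for Nfkbie and 2.35 for Bcl3. Nfkbie then no longer differed most. With the replicate number as a block, which pairs LSK with LK libraries, Bcl3 was no longer called (log2 difference 1.39, adjusted p = 0.0630), nor was it with limma-voom (adjusted p = 0.187). Relb (1.53, interval 0.20 to 2.87, adjusted p = 0.0747) and Tnfaip3 (0.89, interval 0.14 to 1.65, adjusted p = 0.0670) did not pass, and both passed without LSK PBS replicate 2 (adjusted p = 0.00654 and 0.0263), when Nfkbiz did not (adjusted p = 0.0838). Rela alone had a negative value (-0.21, interval -0.63 to 0.21).

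Among upstream regulators with PBS, 4 of the 13 kinases and other inhibitors were higher in LSK cells and 2 lower. Over all genes tested 19.4% were called higher and 12.4% lower, so counts of this size, and those of the κB target genes, are near the background. Map3k14 (log2 difference 1.63 ± 0.34), which encodes NIK, the kinase of the non-canonical pathway, Map3k8 (2.68 ± 0.70), Ikbkg (0.88 ± 0.26), the gene of the NEMO subunit, and Tbk1 (0.51 ± 0.18) were higher. Chuk (-0.63 ± 0.18), the IKKα gene, and Tab3 (-0.58 ± 0.21) were lower. Of the 18 ubiquitin regulators, 5 were higher and none lower in LSK cells, with Tnip3 (4.76 ± 0.66), Cyld (0.99 ± 0.17), which encodes a deubiquitinase, Birc3 (1.19 ± 0.27), Tnip2 (1.1 ± 0.26) and Tax1bp1 (0.55 ± 0.19). Of 14 tested κB target genes, Irf1 (2.07 ± 0.21), Icam1 (2.24 ± 0.33) and Bcl2l1 (1.54 ± 0.21) were higher in LSK cells, and Sod2 (-0.64 ± 0.13) and Vcam1 (-2.91 ± 0.68) lower.

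Across the 14 libraries, the genes whose level ran most like that of Nfkbia were Abca1, Rnf157 and Crk (Pearson r of log2 CPM 0.984, 0.978 and 0.975), and those most like Nfkb2 were Slfn5, Tlr7 and Dusp7 (0.990, 0.989 and 0.985). They were found among 11050 genes, and the values describe mainly the gap between the 4 MSC and the 10 sorted libraries, since both members were highest in MSC.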

How the data were processed

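The authors deposited raw counts of read pairs per gene, one table per population. Per the submitters' processing notes and the file headers, reads were trimmed with fastp 0.20.0, aligned to GRCm38 with HISAT2 2.0.1 and counted with featureCounts 2.0.2 in reverse-stranded mode on Ensembl genes. Read pairs shared by several genes were not counted, so overlapping genes lose reads.

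Tests were run with edgeR 4.0.16 under R 4.3.3 on genes kept by filterByExpr, with TMM factors and a robust quasi-likelihood fit, within each population or over 10 or 14 libraries for differences between populations. P-values were adjusted over all genes tested (Benjamini-Hochberg). A call needed a log2 fold change of more than 0.5 in either direction together with an adjusted p below 0.05. The SE is the log2 fold change divided by the square root of F, and intervals are 95%. Alternatives used DESeq2 1.42.0, limma 3.58.1 (voom), DESeq2 size factors, no filter, no fold threshold, a replicate block, joint fits and each library left out in turn. The tests were checked on simulated counts. The planted changes were larger than most of those reported here and lay only in genes with ample counts. The check therefore does not cover small changes or low counts.

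Departures from the group means were correlated between LSK and LK libraries of one replicate number, with r from 0.128 to 0.472 in the PBS pairs. The IL-1β pairs share a single r of 0.100, because departures of 2 libraries from their mean mirror each other. No r was computed for LSK and LK libraries of unlike numbers, so these values do not show that the number pairs libraries. The replicate block assumes such pairs. Where the number comes from is not given in the sources used here.

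All 10 genes, and from 3 pathway lists at most the 4 called genes with the smallest p per comparison, are named. Traf2, Otulin, Tbk1, Tab3, Tax1bp1, Vcam1, Gadd45b and Csf1 were named beyond that rule, in some comparisons, after their values were seen. The genes and lists were chosen with earlier results of these data known. A further MSC library named in a file header was not analysed here. Figures were drawn with matplotlib.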

Additional observations from a re-analysis of the deposited data

Results flagged for a closer look

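In 4 genes the response to IL-1β differed between MSC and LSK cells by a test of the difference itself (edgeR, 14 libraries). The log2 fold change was higher in MSC by 1.55 for Nfkb2, by 1.75 for Nfkbia, by 2.0 for Nfkbie and by 2.94 for Nfkbiz. The value for Nfkbiz rests on 36 and 7 counts in the LSK libraries with IL-1β. Nfkbie was not called with limma-voom (adjusted p = 0.0552), and of the 4 only Nfkbia passed whichever library was left out. The part of macrophage marker RNA in MSC, and of the shifts in stem, lymphoid and neutrophil granule markers in LSK cells, was not tested.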

How the results depend on the processing

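Over the alternatives, 786 of 895 log2 fold changes of single members kept their direction and their side of the threshold, 24 passed that had not, 66 no longer passed and 19 changed sign. The 786 include uncalled values that stayed uncalled, as all 116 in LSK and all 177 for MSC minus LK were. Of the 66, 26 were for LSK against LK with PBS, 17 in MSC, 15 for MSC minus LSK and 8 in LK. For the LSK against LK difference in response only Rel, Nfkbie and Bcl3 were included. With all 14 libraries in one fit, 2 members were called lower in LSK (Nfkb2 and Rel), 0 higher and 0 lower in LK and 1 higher in MSC. Of all 15393 genes, that fit called 1022 lower in LSK, 515 higher and 164 lower in LK and 335 higher in MSC. With 10 libraries, LK had 0 members called in both directions. In the LSK against LK difference in response DESeq2 called 1 lower and no filter on low counts 2. In the MSC against LK difference no filter called 1 higher. The replicate block called 2 higher in LK (the added gene was Nfkbie) and turned the log2 fold change of Bcl3 in LSK to 0.28 (adjusted p = 0.921). It changed 1 call between LSK and LK cells, that of Bcl3 with PBS. Between PBS and IL-1β libraries of one replicate number r ran from -0.102 to 0.126. MSC treatments share a single number, so no paired analysis of MSC was possible. The cause of these changes was not tested.

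Uncalled members near 0 in LK changed sign. With 14 libraries the values were -0.033 for Nfkb2, -0.0014 for Nfkbia, -0.011 for Nfkbiz and -0.034 for Tnfaip3. Nfkbiz was at -0.069 with the replicate block and Tnfaip3 at -0.0051 with limma-voom. Over fits that omit 1 library the ranges were -0.092 to 0.16 for Nfkb2, -0.30 to 0.36 for Nfkbia, -0.21 to 0.64 for Nfkbiz and -0.55 to 0.45 for Tnfaip3 in LK, -0.83 to 0.063 for Tnfaip3 in LSK, and, for MSC minus LK, -0.00068 to 0.57 for Nfkbie and -0.029 to 0.94 for Tnfaip3.

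Leaving out libraries gave 0 to 2 members higher and 0 to 1 lower in LK, 0 to 7 higher in MSC, 4 to 8 higher in LSK than LK with PBS, 0 to 1 lower in the LSK against LK difference and 1 to 8 higher in the MSC against LSK difference. In LK the count was 0 without either IL-1β library, and 2 higher without PBS replicate 3. The 4 with PBS came without LK IL-1β replicate 1, LK IL-1β replicate 2 or LK PBS replicate 1. Over all genes, counts called higher ranged over the alternatives from 3 to 962 in LSK (42 as reported), 61 to 1499 in LK (869), 38 to 2038 in MSC (945), 1677 to 2771 for LSK against LK with PBS (2678), and, for the differences in response, 0 to 170 for LSK against LK (1), 193 to 1575 for MSC against LSK (826) and 66 to 386 for MSC against LK (191). Low counts limit Relb and Nfkbiz in both LK and LSK cells.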
